A study of Arabidopsis thaliana with 3 samples.

Results

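The glutathione S-transferase (GST) genes of Arabidopsis thaliana roots were taken as the listed genes whose name begins with GST, with or without the prefix AT, followed by any class letter and a number. This rule found 45 of the 33446 names in the root table, of which 25 carried the letter U (tau), 9 F (phi), 3 L (lambda), 3 T (theta) and 2 Z (zeta), and 3 carried no class letter. RNA came from whole roots of 14-day-old Col-0 seedlings, all carrying a single-plasmid INTACT system (a tag for affinity purification of nuclei) driven by the constitutive 35S promoter. They were grown on vertical agar plates under long days, with 3 libraries of a single condition. The deposited values are RPKM (read number scaled to gene length and library size) in a single column for all 3 libraries, so there were no replicates to compare, no other organ or treatment is in this table, and every error given below is counting error only. In whole-root RNA, expression in few cells at a high level cannot be told apart from expression in many cells at a low level.

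GSTs join the thiol of glutathione, the main soluble thiol of plant cells, to reactive or electrophilic compounds, or use glutathione to reduce peroxides and other substrates. The tau and phi classes are the large plant classes, known for herbicide detoxification and stress-induced expression, whereas the zeta enzyme takes part in tyrosine breakdown, theta enzymes act as peroxidases and lambda enzymes bind flavonoids and act as thiol transferases. Many tau and phi genes lie side by side in tandem arrays.

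All 45 members had a value above 0. Of these, 43 (23 of 25 tau and every member of the other groups) exceeded 1 RPKM, the level above which a gene is called expressed here, beside 56.0% of all listed genes and 68.4% of genes matched to protein-coding loci. There were 32 members over 10 RPKM, beside 28.8% of all listed genes and 35.6% of protein-coding ones, and 12 over 100 RPKM, beside 3.54% of all listed genes and 4.34% of protein-coding ones. The median member had 28.7 RPKM, with quartiles of 7.15 and 108 RPKM, and the median of all listed genes was 2.21 RPKM. Thus GST names made up 0.135% of the table and held 0.835% of its summed RPKM. This sum of 5085 RPKM was unevenly held, with 38.1% in GSTU19 and GSTF9 and 78.7% in the 10 highest members. The highest member, GSTU19, had 36497 times the RPKM of the lowest, ATGSTU15, with an interval of 12489 to 176977 from the 3 reads of ATGSTU15 (exact Poisson, 95%).

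**Figure D1:**
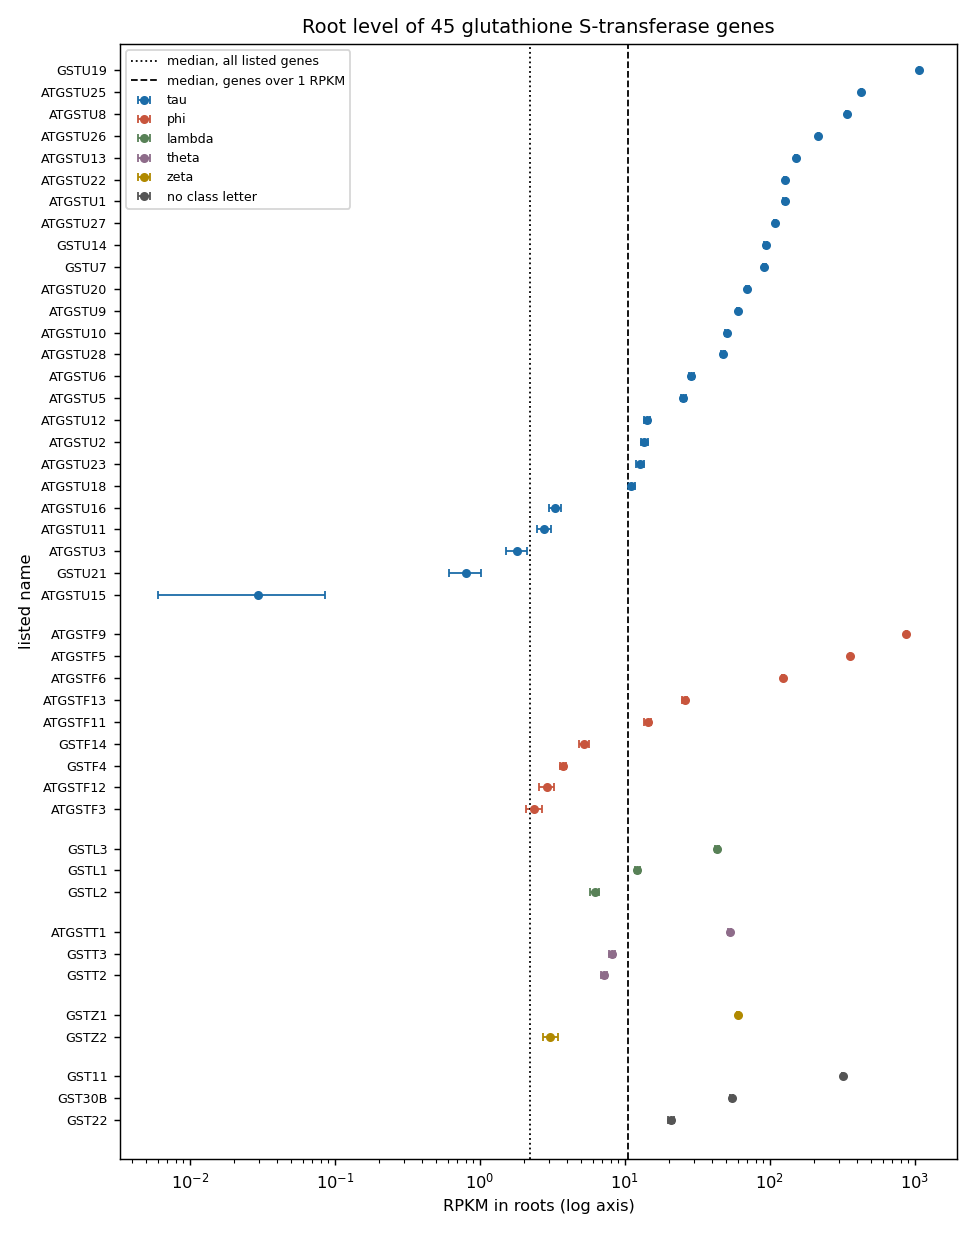
RPKM in roots (horizontal log axis) of each of the 45 members by listed name, grouped and coloured by class letter. Bars are exact 95% Poisson intervals of the read number (counting error only), and the dotted and dashed lines are the medians of all listed genes (2.21 RPKM) and of genes over 1 RPKM (10.5 RPKM). GSTU19 is highest at 1069 RPKM, and GSTU21 and ATGSTU15 alone lie below 1 RPKM.

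The depth behind these values could be read from the table itself. With gene lengths from 300 bases to under 4000 tried for each member, all 45 RPKM values gave a whole read number, within the rounding of the deposited decimals, at a library size of 118729666 reads. At sizes up to 2 reads away, at most 3 members did so. This size is either the 3 libraries pooled or a single library. The length was then taken between the coding length and the longest annotated transcript. Where none fitted, lengths up to the sum of the annotated transcripts were used. For members with several transcripts where a shorter length fitted, longer lengths with larger read numbers were not considered. Read numbers between 3 (ATGSTU15) and 125730 (GSTU19) followed, with the smallest taken where several lengths were possible. On these numbers, 38 members had a counting error below 5%. When the members were ordered by RPKM, 14 of the 44 neighbouring pairs did not differ beyond counting error. Among these were ATGSTU22 (127 RPKM) with ATGSTU1 (126 RPKM), and ATGSTU16 (3.32 RPKM) with GSTZ2 (3.07 RPKM). The remaining pairs differed beyond counting error, but the spread between plants is not in these values.

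Tau members had a median of 50.2 RPKM and held 60.8% of the members' summed RPKM. GSTU19 (AT1G78380, minus strand of chromosome 1 from 29486387 to 29488007 in the TAIR10.1 assembly), a cytosolic enzyme with high conjugating activity, had 1069 RPKM and ranked 21 of all listed genes. It alone held 34.5% of the tau sum. ATGSTU25 followed at 428 RPKM. With its neighbour GSTU24 it is known for conjugating the explosive TNT. ATGSTU8 had 339 RPKM, ATGSTU26 had 216 RPKM and ATGSTU13, an enzyme tied to indole glucosinolate metabolism, had 151 RPKM. Between these and the lowest members lay 15 genes from ATGSTU22 at 127 RPKM to ATGSTU18 at 11.1 RPKM. ATGSTU20, which binds the jasmonate-conjugating enzyme FIN219, was among them with 70.0 RPKM.

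The 5 lowest tau members were far below the rest. ATGSTU16 had 3.32 RPKM, ATGSTU11 had 2.77 RPKM and ATGSTU3 had 1.80 RPKM. GSTU21 rested on 63 reads, giving 0.796 RPKM with an exact 95% Poisson interval of 0.611 to 1.02 RPKM, so counting error does not separate it from the level of 1 RPKM. ATGSTU15 rested on 3 reads and had 0.0293 RPKM, with an interval of 0.00604 to 0.0856 RPKM. Hence a single class held both the highest and the lowest GST of the table.

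GSTU1 and GSTU2 show how close tau genes can be in sequence and how far apart in level. They are neighbours on the minus strand of chromosome 2 (GSTU1 from 12631341 to 12632538, GSTU2 from 12630198 to 12631321), and their coding sequences were 85.9% identical. ATGSTU1 had 126 RPKM and ATGSTU2 had 13.6 RPKM, a 9.26-fold difference. For ATGSTU1, 3 lengths were possible, giving 10730 to 15022 reads. With the smallest read number set on the longest annotated transcript, the genes had 81.9 and 13.6 RPKM, a 6.003-fold difference. The higher read numbers would give a larger difference, so this value is a lower limit. Below is a stretch of 61 coding bases, the length of a sequenced read, near their start codons (RefSeq, TAIR10.1, coding positions 8 to 68, 5′ to 3′). Capitals mark the 3 bases that differ.
GSTU1: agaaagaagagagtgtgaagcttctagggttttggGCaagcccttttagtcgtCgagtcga
GSTU2: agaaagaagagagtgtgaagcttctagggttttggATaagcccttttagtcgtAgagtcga
A read from this stretch would match the other gene with 3 mismatches. Over their whole exons, neither gene had a 61-base window repeated elsewhere in the genome. In GSTU2, however, 669 of 951 exon bases are shared with AT2G29485 on the opposite strand, and the use of strand in counting is not given in the sources used here.

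Phi members had a lower median of 14.4 RPKM, but their levels fell into a wide range. ATGSTF9 (AT2G30860, plus strand of chromosome 2, 13138882 to 13140392), linked to glucosinolate synthesis and peroxide reduction, had 871 RPKM and ranked 35 of all listed genes. The name ATGSTF5 had 358 RPKM. These 2 names held 87.3% of the phi sum. ATGSTF6, an enzyme of camalexin synthesis, had 124 RPKM, ATGSTF13 had 25.8 RPKM and ATGSTF11, tied to aliphatic glucosinolates, had 14.4 RPKM. The remaining members had less than 10 RPKM. GSTF14 had 5.20 RPKM, GSTF4 had 3.76 RPKM, ATGSTF12 (TT19, needed for carrying anthocyanins to the vacuole) had 2.89 RPKM and ATGSTF3 had 2.36 RPKM.

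ATGSTF5 is not a clear identity. In the annotation this name belongs to GSTF5 (AT1G02940) and also to GSTF8 (AT2G47730), the phi enzyme whose promoter is widely used as a stress reporter in roots. The reads of the name, 105916 or 211832 by the length taken, could not be assigned to either. ATGSTF11 was uncertain for another reason, since all 934 of its exon bases lie within exons of NAC045 on the opposite strand, which was listed at 1.69 RPKM.

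The 3 members without a class letter are annotated as phi or tau genes. GST11 (GSTF7, phi) had 317 RPKM, GST30B (GSTU17, also called ERD9, tau) had 54.6 RPKM and GST22 (GSTU4, tau) had 20.9 RPKM. GSTF7 and GSTF6 were the most similar pair of the family, at 94.7% of coding bases. Their first 61 coding bases (chromosome 1, RefSeq, TAIR10.1) were the same, so that a read from here cannot tell them apart.
GSTF6 and GSTF7: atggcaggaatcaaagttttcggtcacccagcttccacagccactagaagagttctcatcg
Of the 61-base exon windows of GSTF7, 7.76% occurred elsewhere in the genome, and of those of GSTF6, 7.96%. The difference between GST11 at 317 RPKM and ATGSTF6 at 124 RPKM was 2.56-fold. The other members with repeated windows were GSTT3 (5.32%), GSTT2 (4.62%), GSTT1 (3.88%), GSTZ1 (1.51%) and GSTU8 (0.807%), and no other member locus had any.

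Among 49 annotated GST genes, 3 stand in the table under names outside the rule, and all 3 were high. ERD13 (GSTF10, neighbour of GSTF9) had 847 RPKM, GST (GSTU24) had 284 RPKM and ATPM24.1 (GSTF2) had 251 RPKM. The order of the classes depended on these names. Tau had 3.50 times the median of phi by the letter in the listed name. When every annotated gene was counted in its class under any listed name, the median was 52.4 RPKM for 28 tau genes and 74.9 RPKM for 12 phi names, and the ratio of tau to phi was 0.700. This phi median lies between ATGSTF13 (25.8 RPKM) and ATGSTF6 (124 RPKM), with no phi name between them. The order of these classes therefore changed with naming, but by annotation it rests on few phi names. A median by annotation without ATGSTF5, whose value could not be assigned to a locus, was not taken.

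**Figure D2:**
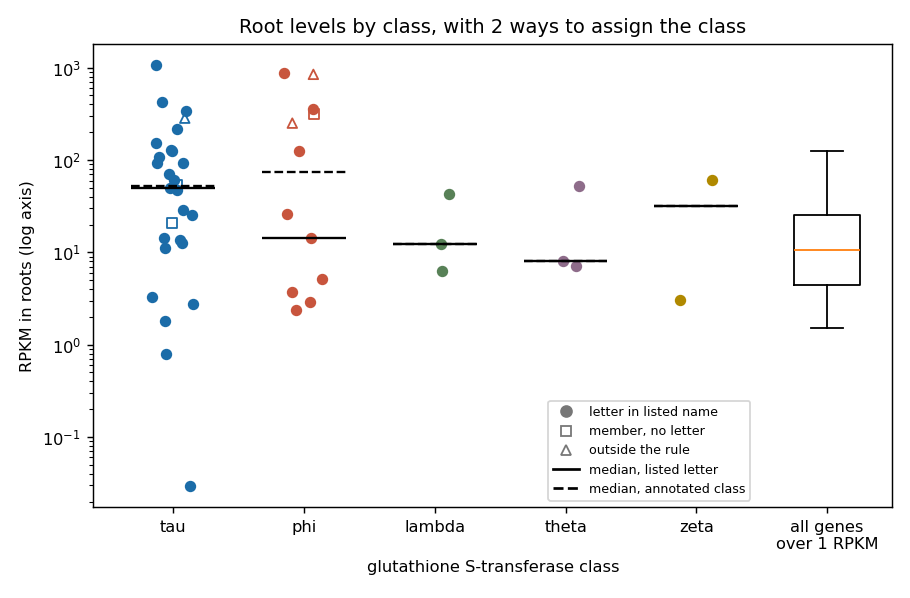
RPKM in roots (vertical log axis) by GST class. Filled circles carry the class letter in the listed name, open squares are members without a letter and open triangles are GST genes outside the rule, while solid and dashed lines are the medians by listed letter and by annotation. The box at the right shows the median, quartiles and 5th to 95th percentiles of all genes over 1 RPKM. The phi median moves to 74.9 RPKM by annotation, against 14.4 RPKM by letter, and the tau median stays at 50.2 or 52.4 RPKM.

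The smaller classes were expressed at moderate levels. GSTL3 had 43.2 RPKM, its neighbour GSTL1 had 12.2 RPKM and GSTL2, a plastid protein, had 6.21 RPKM. ATGSTT1, a peroxisomal peroxidase, had 52.8 RPKM, whereas GSTT3 and GSTT2, whose longest annotated coding sequences of 1773 and 1776 bases exceed the 738 bases of GSTT1, had 8.15 and 7.15 RPKM. GSTZ1, the maleylacetoacetate isomerase of tyrosine breakdown, had 60.2 RPKM and its neighbour GSTZ2 had 3.07 RPKM, a 19.7-fold difference. In each of these classes a single gene held most of the sum: 70.2% for GSTL3, 77.5% for GSTT1 and 95.2% for GSTZ1.

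Gene structure followed the class. All 27 tau loci matched to a member had 2 coding exons, and 8 of 9 phi loci had 3 (GSTF3 had 2). Lambda genes had 9 or 10, theta genes 5 to 8 and zeta genes 7 to 10. For genes with several annotated transcripts, these are the fewest coding exons in any of them. Length bears on RPKM here, because the gene length implied by the read steps often differed from the longest annotated transcript. With the shortest length taken where several were possible, it was below that transcript in 36 members, equal to it in 4 and above it in 5. For GSTF4, with 5 annotated transcripts, it was 3.73 times as long. Recomputed for the longest transcript, its 1611 reads give 14.0 RPKM. The same step gives 21.4 RPKM for GSTL1, 92.6 RPKM for ATGSTU9 (60.2 RPKM as deposited) and 72.1 RPKM for GSTZ1. For GSTZ1, 9857 or 19714 reads were possible and the smaller number was used. The step lowered ATGSTU8, with 1 possible length, over 1.5 times to 214 RPKM (339 RPKM as deposited). Reads in bases outside the length behind the deposited values would not be in these read numbers. Where that length is shorter, the step can therefore only lower a value. On the smallest possible read number it also lowered ATGSTU1 to 81.9 RPKM (126 RPKM), ATGSTU6 to 17.7 RPKM (28.7 RPKM), GST22 to 12.04 RPKM (20.9 RPKM) and ATGSTU3 to 1.16 RPKM (1.80 RPKM). These had several possible lengths, with up to 15022, 4185, 2800 and 228 reads in that order. The higher read numbers would lower them less, so the size of their drop is not settled. The step could not be applied to ATGSTF5.

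To follow levels along the chromosomes, GST genes with starts within 10 kb of each other were joined into arrays. This gave 12 arrays with 36 of the 49 annotated genes, and in every array all genes lie on the same strand. In the array of 5 tau genes on chromosome 1 (29467412 to 29488007), ATGSTU23 had 12.7 RPKM, ATGSTU22 had 127 RPKM, GSTU21 had 0.796 RPKM, ATGSTU20 had 70.0 RPKM and GSTU19 had 1069 RPKM. The lowest gene therefore lies between higher neighbours, and the array spanned a 1343-fold range. The longest array held 7 tau genes on chromosome 2 (12617936 to 12632538). In chromosome order, GSTU7 had 91.7 RPKM, ATGSTU6 had 28.7 RPKM, ATGSTU5 had 25.3 RPKM, GST22 (GSTU4) had 20.9 RPKM, ATGSTU3 had 1.80 RPKM, ATGSTU2 had 13.6 RPKM and ATGSTU1 had 126 RPKM. The outer genes were the highest, with a 70.0-fold range. In GSTU7, 559 of 887 exon bases are shared with a long noncoding RNA on the opposite strand.

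Some other arrays were more even. GSTF9 and GSTF10 on chromosome 2 had 871 and 847 RPKM, a 1.03-fold difference. With the read numbers taken here set on the longest transcript, they had 625 and 750 RPKM. GSTF9 has 2 annotated transcripts, and longer lengths with more reads were not considered for it. The order on this scale is therefore not settled. GSTU24, GSTU25 and GSTU26 on chromosome 1 had 284, 428 and 216 RPKM, a 1.98-fold range. GSTU13 and GSTU14 had 151 and 93.8 RPKM. By contrast, ATGSTU15 and ATGSTU16 had 0.0293 and 3.32 RPKM, a 113-fold difference with an interval of 38.7 to 549 from the 3 reads of ATGSTU15. The phi array of GSTF7, GSTF6, GSTF5 and GSTF4 spanned 84.5-fold by deposited RPKM, between GSTF7 and GSTF4. GSTF5 was left out of this range because the value of its name could belong to GSTF8. With reads set on the longest transcript, GSTF4 had 14.0 RPKM and GST11 (GSTF7) 242 RPKM, a smaller difference than by deposited RPKM.

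**Figure D3:**
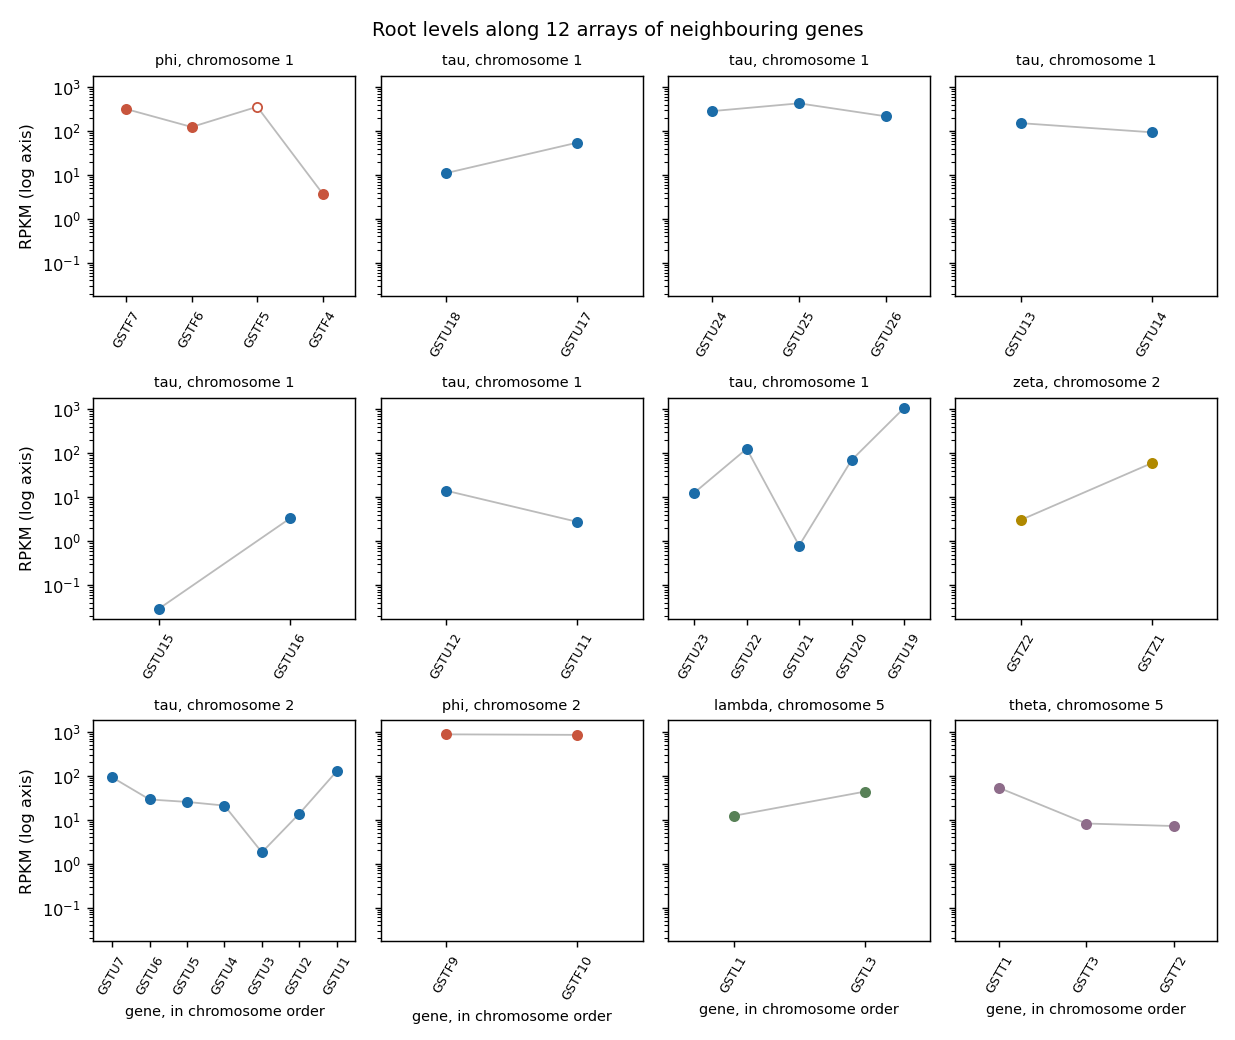
RPKM in roots (vertical log axis) of the genes of each of the 12 arrays, in chromosome order and spaced evenly, 1 panel per array, coloured by class. The open point is the value of the name that GSTF5 shares with GSTF8. The array of GSTF9 and GSTF10 is flat, whereas GSTU21 at 0.796 RPKM sits between ATGSTU22 at 127 RPKM and ATGSTU20 at 70.0 RPKM.

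Pairs of the same class were then compared by sequence and by level. Over 378 pairs of tau genes, the median coding identity was 65.7% and the median difference 6.18-fold, and Spearman's rho between identity and difference in level (absolute log2 ratio) was -0.01. Over the 38 tau pairs of the same array, with a median identity of 76.0%, the median difference was 5.30-fold and rho was 0.07. For 55 phi pairs rho was -0.34. Pairs share genes and a single table, so these values are descriptions. The 11 tau pairs over 80% identical had a median difference of 6.06-fold. GSTU6 and GSTU5 (84.1% identical) had 28.7 and 25.3 RPKM, and 17.7 and 18.6 RPKM with reads set on the longest transcript. The 17.7 RPKM rests on 2790 reads, but 4185 reads were also possible for GSTU6, so the order on this scale is not settled.

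GSTF3 and GSTF2 stood apart as a pair. They lie on chromosomes 2 and 4 and are 94.5% identical, yet ATGSTF3 had 2.36 RPKM and ATPM24.1 (GSTF2, known to bind camalexin) had 251 RPKM, a 106-fold difference. They share 14 of the 579 spliced coding windows of 61 bases, among them the stretch at coding positions 163 to 223 (RefSeq, TAIR10.1).
GSTF2 and GSTF3: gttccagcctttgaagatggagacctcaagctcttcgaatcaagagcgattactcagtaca
Reads of the higher gene that were placed at the lower one would raise the 263 reads of ATGSTF3, and their share was not tested. In GSTF2, 890 of 1471 exon bases overlap TOC159 on the opposite strand, which was listed under the name TOC160 at 18.5 RPKM.

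**Figure D4:**
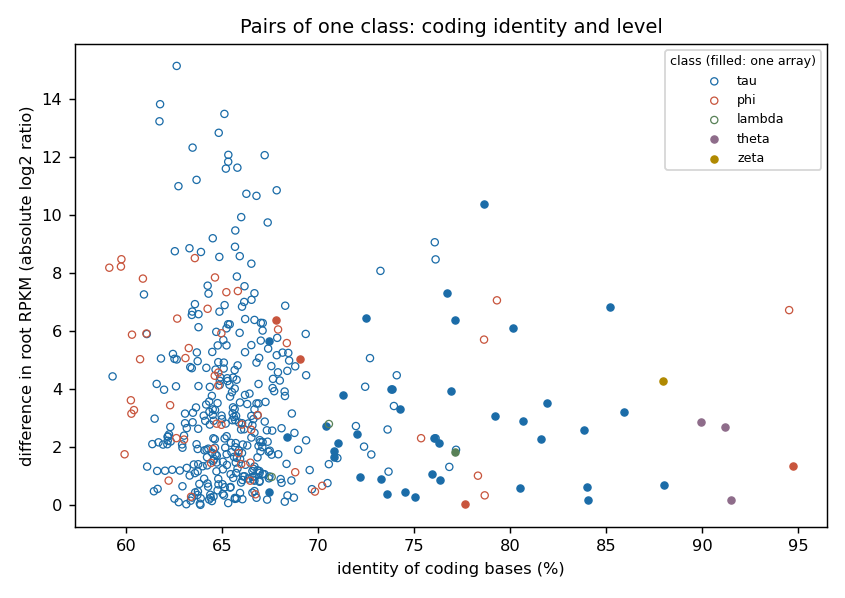
Difference in root RPKM (vertical axis, absolute log2 ratio) against identity of coding bases in percent (horizontal axis) for pairs of genes of the same class, with filled points for pairs of the same array. Over the 378 tau pairs rho was -0.01, and the phi pair at 94.5% identity differed 106-fold.

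Several GST promoters are known to carry the motif TGACG, the core of the as-1 element bound by TGA transcription factors. The 250 bases before the annotated start of each gene were searched for TGACG on both strands (TGACG or CGTCA). It was found at 13 of 46 loci of the members (28.3%, with both loci of the name ATGSTF5 counted) and at 5098 of 27443 protein-coding genes (18.6%). Of the loci over 100 RPKM, 5 of 13 (38.5%) had it, and of those up to 100 RPKM, 8 of 33 (24.2%). The longer form TGACGT was found at 7 of 46 member loci (15.2%) and 7.69% of all promoters. It was at 4 of 13 loci over 100 RPKM (30.8%) and at 3 of 33 up to 100 RPKM (9.09%). Windows were not cut at neighbouring genes, and those of GSTU2, GSTU18, GSTZ1 and GSTL3 run into a neighbouring GST gene. A match is a description of sequence, not a bound site.

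The promoters printed here show how the motif fell across genes of the arrays described above (RefSeq genome, TAIR10.1, all on the minus strand, 5′ to 3′, ending at the base before the annotated start, with TGACG or CGTCA in capitals). GSTU1 has the motif 77 and 65 bases before its start and GSTU7 has 3 matches, at 61, 52 and 49 bases. The matches at 52 and 49 bases overlap on opposite strands within TGACGTCA, so they are not separate sites. GSTU2 and GSTU19, the highest member, have none in this window. Most of the GSTU2 window lies inside the annotated GSTU1 gene (12631341 to 12632538), so it is largely sequence of the neighbouring gene. The windows are chr2:12632539-12632788 for GSTU1, chr2:12631322-12631571 for GSTU2, chr2:12618900-12619149 for GSTU7 and chr1:29488008-29488257 for GSTU19.
GSTU1: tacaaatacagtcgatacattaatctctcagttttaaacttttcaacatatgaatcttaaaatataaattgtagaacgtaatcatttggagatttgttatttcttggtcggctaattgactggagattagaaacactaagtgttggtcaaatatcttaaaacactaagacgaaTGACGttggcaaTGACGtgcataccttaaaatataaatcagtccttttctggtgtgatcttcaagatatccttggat
GSTU2: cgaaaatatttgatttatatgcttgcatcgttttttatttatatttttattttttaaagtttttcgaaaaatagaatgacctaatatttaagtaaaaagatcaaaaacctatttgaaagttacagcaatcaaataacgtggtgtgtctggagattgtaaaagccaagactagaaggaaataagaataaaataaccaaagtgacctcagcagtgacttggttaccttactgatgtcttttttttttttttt
GSTU7: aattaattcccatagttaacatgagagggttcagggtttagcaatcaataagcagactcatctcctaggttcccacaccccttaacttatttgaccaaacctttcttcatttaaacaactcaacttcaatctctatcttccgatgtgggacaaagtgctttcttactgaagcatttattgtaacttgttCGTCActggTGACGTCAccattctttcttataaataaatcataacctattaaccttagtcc
GSTU19: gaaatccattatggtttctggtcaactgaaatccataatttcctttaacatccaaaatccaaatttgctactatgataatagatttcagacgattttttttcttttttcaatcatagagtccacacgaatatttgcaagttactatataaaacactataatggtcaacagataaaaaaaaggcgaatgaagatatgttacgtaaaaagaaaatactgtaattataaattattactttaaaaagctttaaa
The genes of these windows had 126 RPKM (GSTU1), 13.6 RPKM (GSTU2), 91.7 RPKM (GSTU7) and 1069 RPKM (GSTU19). The presence of the motif did not order these few genes, picked after their values were seen, by level. A relation of motif and level over all loci was not tested.

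Genes related to the GSTs were taken as 8 lists. These cover glutathione metabolism and transport, proteins with a GST fold or in membranes, and TGA factors with their partner SCL14. Of 44 listed genes, 40 had a value and 39 exceeded 1 RPKM, beside 56.0% of all listed genes and 68.4% of protein-coding ones, with a median of 26.7 RPKM, beside 28.7 RPKM for the members. GR1, GGT2, GGT4 and ABCC5 were not analysed here. The enzymes of glutathione synthesis, GSH1 and GSH2, had 50.6 and 55.8 RPKM, and GR2, the organellar glutathione reductase, had 32.4 RPKM. In the glutathione peroxidase family, 7 of 8 genes exceeded 1 RPKM, with GPX6 at 515 RPKM, GPX2 at 276 RPKM, GPX8 at 85.3 RPKM, GPX5 at 53.4 RPKM, GPX3 at 28.9 RPKM, GPX1 at 26.05 RPKM, GPX4 at 3.68 RPKM and GPX7 at 0.230 RPKM. Genes of proteins with a GST fold or membrane GSTs outside the rule ranged widely, with a median of 111 RPKM over 7 genes. DHAR1, a dehydroascorbate reductase, had 206 RPKM, DHAR2 had 97.5 RPKM, DHAR3 had 18.1 RPKM and AT1G77290 (TCHQD class) had 2.97 RPKM. The translation factor subunits eEF1Bgamma had 122 and 147 RPKM, and the microsomal AT1G65820 had 111 RPKM.

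Genes that act after conjugation varied by list. Of the ABCC pumps, which carry glutathione conjugates, ABCC1 had 29.1 RPKM, ABCC4 had 19.9 RPKM, ABCC2 had 14.8 RPKM and ABCC3 had 7.10 RPKM, with a median of 17.4 RPKM. In the list of glutathione and conjugate breakdown, all 8 genes with a value exceeded 1 RPKM and the median was 31.5 RPKM. GGP1 led with 234 RPKM, followed by GGCT2;2 at 92.4 RPKM and GGCT2;1 at 44.4 RPKM, while GGT1 and the phytochelatin synthase PCS2 were lowest at 6.32 and 1.04 RPKM. The plastid thiol transporters CLT3, CLT1 and CLT2 had 13.8, 4.43 and 2.90 RPKM. Of the TGA factors, TGA3 had 58.1 RPKM, TGA1 had 27.3 RPKM, TGA4 had 15.4 RPKM, TGA5 had 8.51 RPKM, TGA2 had 2.76 RPKM and TGA6 had 1.62 RPKM, and their partner SCL14 had 20.9 RPKM. Which length the authors used for genes with several transcripts is not settled, and its effect on the lists was not tested.

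The tissue label was checked against markers. All 6 root markers exceeded 10 RPKM, between SCR at 11.4 RPKM and the root beta-glucosidase BGLU23 at 4958 RPKM. The 6 leaf mesophyll markers had 2.12 to 20.6 RPKM, with 3 of them over 10 RPKM, and the root markers SCR, NRT2.1 (12.1 RPKM) and SHR (14.9 RPKM) lay within that range. The 2 pollen markers had 0.137 and 0.278 RPKM, and the 2 seed markers had 0.00166 and 0.00930 RPKM.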

How the data were processed

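RNA-seq libraries (61 bp, single-end) from 3 root samples of 1 condition were combined by the authors in a single deposited column of RPKM. The submitters' processing notes name STAR, HTSeq, edgeR and TAIR10, whereas the study's methods name TopHat2 for RNA-seq alignment. Versions, annotation release, use of strand and the way the libraries were combined are not given in the sources used here.

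Names were matched to the TAIR10.1 RefSeq annotation by symbol (14 members), synonym (27) or elimination of names already taken (3), and 1 name is shared by 2 loci. Library size was taken as the size at which most genes with 1 annotated transcript gave whole reads (3747 of 10777, against 1929 at the next best of 121 sizes), with gene length as summed exon ends minus starts in TAIR10.1. For members the length was searched instead, and mostly came out shorter than the TAIR10.1 transcript. The step was checked on 2 simulated tables. For members with several possible lengths in the range searched (8 of 45) the smallest read number is given. For genes with several annotated transcripts, some single transcript gave whole reads in 506 of 6444, the sum of lengths over transcripts in 270 and the union of exons in 49, so the length rule for such genes is not settled.

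Repeats were counted as 61-base exon windows found again in the genome. Coding identity came from global alignments (match 1, mismatch -1, gap opening -2.5, extension -0.5). It replaced the planned protein identity. Motifs were searched in 250 bases of the genome before each start. No group test was possible with a single column.

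Named genes were fixed by rule as the 5 highest and 5 lowest tau, the 5 highest and 3 lowest phi and all other members, GST genes under other names, and in pathway lists of more than 8 genes the 3 highest and 2 lowest. Members named from arrays, close pairs and motifs were chosen after their values were seen. The members and lists were chosen with earlier results of these data known. Alternatives were other thresholds, naming by annotation, TPM, reads, array gaps and motif forms. Scripts ran in Python 3.11.15. Sequences were aligned with Biopython 1.88, tables were handled in pandas 2.3.3 and numpy 2.4.6, Poisson intervals came from scipy 1.17.1 and plots from matplotlib 3.10.9.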

Additional observations from a re-analysis of the deposited data

How the results depend on the processing

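The class comparison changed with naming. Counting all annotated GST genes under any listed name gave medians of 52.4 RPKM for tau and 74.9 RPKM for phi, a ratio of tau to phi of 0.700 in place of 3.50, and 30.0% of the sum in the 2 highest genes in place of 38.1%. Without the highest member of each class, the phi median was 9.78 RPKM and the ratio 5.01. The geometric mean of RPKM plus 1 was 36.4 RPKM for tau and 25.4 RPKM for phi (ratio 1.43), and on the TPM scale the medians were 82.5 and 23.6 TPM. By reads, the 2 highest members held 36.9%. The motif TGACGT was found at 7 loci in place of 13 for TGACG. Settings added after the data were seen gave a phi median of 20.1 RPKM (ratio 2.50) with the annotated class of the members without a letter, 9.78 RPKM (ratio 5.14, 41.0% in the 2 highest) without the name shared by 2 loci, and medians of 44.4 RPKM (tau) and 13.1 RPKM (phi), with 40.6% in the 2 highest and a median difference between phi pairs of 9.04-fold in place of 10.9-fold, for reads per longest annotated transcript. The number of members over the threshold ranged between 32 at 10 RPKM and 44 at 0.5 RPKM, and array number between 11 and 12.

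No paired analysis was possible because the 3 libraries share a single column, and for the same reason leaving out a library gives no value. Variation between plants or libraries is not in these values. Reads in exons shared with an opposite-strand gene, and the length used for genes with several transcripts, limit single values.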

Other observations

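In 3 tau genes outside the arrays of chromosome 2, the motif TGACG lay at nearly the same distance from the annotated start: 87 bases in GSTU25 (428 RPKM) and GSTU22 (127 RPKM) and 89 bases in GSTU27 (108 RPKM). These genes were singled out after the positions were seen. GSTF10, listed as ERD13 at 847 RPKM, had the motif 15 bases before its start, and its neighbour GSTF9 at 871 RPKM had none in the 250-base window.

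Same-strand overlap occurs once among tau neighbours: 71 exon bases are shared by GSTU17 (GST30B, 54.6 RPKM) and GSTU18 (11.1 RPKM).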
